A study of Mus musculus with 42 samples.

Results

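The livers of vehicle-treated mice that had eaten a diet with 1% cholesterol were compared with those of vehicle-treated mice kept on standard chow. The samples were chosen by their titles: mice 1, 3, 4, 5 and 6 on cholesterol diet and mice 1 to 6 on standard diet, which are 11 of the 42 samples of the series. Mouse 2 on cholesterol diet has no scanner intensities and entered no fit, but its deposited values are described at the end. Only mouse probes were used, 284 of them for 277 genes.

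All were female C57BL/6 mice of 19 weeks, each sample being the left lateral liver lobe of 1 animal. The cholesterol diet mice ate the product Western 24769, with 1% cholesterol by weight, from 1 week before the injection, and the standard diet mice stayed on chow 3430. Both groups then received 1 injection of corn oil and were killed 24 h later. The diets are different products, and what they differ in besides cholesterol cannot be told apart from cholesterol here. Other mice of the study received, in the same oil, 3 mg/kg TCPOBOP, which activates the constitutive androstane receptor (CAR) of mice. They numbered 6 on each diet and were 18 weeks old on cholesterol diet and 19 weeks on standard diet. Their arrays also entered the fit that gives the standard errors and adjusted p-values.

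Liver cells make cholesterol from acetyl-CoA through mevalonate, farnesyl diphosphate, squalene and lanosterol. When sterols are scarce, SREBP2 moves from the endoplasmic reticulum to the nucleus and, together with NF-Y and Sp1, switches on the enzymes of this route, and when sterols are plentiful the Insig proteins hold it back. Oxysterols, which form from cholesterol, activate the liver X receptors (LXR), known to drive sterol export and fatty acid synthesis, while bile acids act through the farnesoid X receptor on their own synthesis and export.

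Promoters of 3 enzymes of the route are shown because their mRNAs had the largest differences among those with a promoter window, and because the letters bound by SREBP and NF-Y can be looked for in them. Each window runs from 250 bases before to 50 after the transcription start (RefSeq, GRCm38.p6), 5′ to 3′ on the gene's strand, and capitals mark TCACNCCAC, the letters of a sterol regulatory element, and CCAAT, the letters of an NF-Y box, on either strand (as ATTGG on the other strand). Hmgcs1 lies at chr13:119690101-119690400 on the plus strand, Msmo1 at chr8:64733529-64733828 and Cyp51 at chr5:4104648-4104947, both on the minus strand.
Hmgcs1: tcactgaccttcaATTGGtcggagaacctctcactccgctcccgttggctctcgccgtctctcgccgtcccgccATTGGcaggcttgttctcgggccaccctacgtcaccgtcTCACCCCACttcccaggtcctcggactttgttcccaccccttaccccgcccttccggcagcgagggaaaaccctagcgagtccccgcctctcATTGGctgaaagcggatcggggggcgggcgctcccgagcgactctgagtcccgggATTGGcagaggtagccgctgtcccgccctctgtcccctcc
Msmo1: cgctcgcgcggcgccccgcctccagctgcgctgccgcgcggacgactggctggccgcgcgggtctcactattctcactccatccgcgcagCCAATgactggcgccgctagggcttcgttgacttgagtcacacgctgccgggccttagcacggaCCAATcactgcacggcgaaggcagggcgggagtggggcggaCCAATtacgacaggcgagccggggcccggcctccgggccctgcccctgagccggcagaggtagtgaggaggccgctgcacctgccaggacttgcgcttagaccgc
Cyp51: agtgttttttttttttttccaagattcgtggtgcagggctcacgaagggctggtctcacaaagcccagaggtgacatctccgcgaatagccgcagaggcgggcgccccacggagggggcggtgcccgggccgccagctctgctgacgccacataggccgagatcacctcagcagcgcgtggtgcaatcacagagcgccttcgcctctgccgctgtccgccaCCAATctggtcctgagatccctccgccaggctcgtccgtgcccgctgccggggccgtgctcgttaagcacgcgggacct

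The Hmgcs1 window holds TCACCCCAC at -137 and 4 NF-Y boxes, and the Msmo1 window holds 3 NF-Y boxes. Of the 13 synthesis genes that fell on cholesterol diet (below), 8 had a window, and all 8 of these held CCAAT and the GC box GGGCGG, both searched on either strand. Over all 27025 RefSeq genes with a window, 41.06% held CCAAT and 38.2% held GGGCGG, and over the genes of this array 51.94% and 52.43% did. TCACNCCAC stood in 1 of the 8 windows, that of Hmgcs1, against 1.44% of all genes and 4.85% of those on the array. Among the other genes that passed the test, 21 had a window, of which 13 held CCAAT, 5 held GGGCGG and 2 held TCACNCCAC (9.52%). These are matches of letters, not sites of binding.

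Values are log2 ratios of the liver's Cy3 signal to the Cy5 signal of one pooled liver reference, so that 0 equals the pool and a difference of 1 is a doubling; they say nothing about which of 2 genes is the more abundant. Over the 11 arrays the median liver signal was 162.71 to 289.67 and 62% to 76.4% of the probes lay above background. Each difference is cholesterol diet minus standard diet, with the standard error and the adjusted p of limma over all 277 genes. A rise or fall is written only for an adjusted p under 0.05.

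On cholesterol diet 40 of the 277 genes changed (14.4%), 13 being up-regulated (4.69%) and 27 down-regulated (9.75%). The median difference over all genes was 0.00, which follows from the loess, fitted to the mouse spots of each array. With loess on the spikes it was 0.05, and in the deposited log2 ratios 0.03. For 27 of the 40 every mouse of one diet lay beyond every mouse of the other, which held for 10.8% of all genes measured. Of the 40, 34 are named here. In a piece of whole liver, fewer cells of a type and less RNA per cell cannot be told apart. The labelled tissue could be checked by 5 of 8 hepatocyte markers, of which Alb, Hnf4a, Apoa1 and Cyp2e1 lay above background on every array, Alb being saturated on 3 of 5 and 4 of 6 arrays. No listed marker of macrophages, stellate cells, endothelium, bile ducts or blood cells is on the array, so their part in any result was not tested.

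Cholesterol synthesis had the largest share of genes that fell. Of its 18 measured genes 13 were down-regulated and 0 up-regulated, next to 9.75% down-regulated of all genes, and their median difference was -1.21. In the sentences below the 5 values of the cholesterol diet are those of mice 1, 3, 4, 5 and 6, and the 3 values of the standard diet are the lowest, the median and the highest of 6 mice.

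At the start of the route, Hmgcs1, which makes HMG-CoA, had log2 ratios of -0.44, -2.12, -1.29, -1.20 and -1.93 on cholesterol diet, against 0.07, 0.43 and 1.04 on standard diet. The diets did not overlap, and Hmgcs1 fell by 1.86 (standard error 0.35, adjusted p = 0.000489). Mvk, the mevalonate kinase, had -0.14, -1.14, -0.98, -0.96 and -1.32 on cholesterol diet, against -0.06, 0.18 and 0.82 on standard diet, a fall by 1.21 (standard error 0.24). Mvd, which forms isopentenyl diphosphate, had -0.31, -0.99, -1.34, -1.10 and -1.57 on cholesterol diet, against -0.13, 0.12 and 0.65 on standard diet, a fall by 1.24 (standard error 0.23). In Mvk and Mvd mouse 1 lay just below the lowest mouse on standard diet, while the other 4 lay far below it.

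Fdps, which builds farnesyl diphosphate, had -0.36, -1.85, -1.24, -1.48 and -2.37 on cholesterol diet, against -0.08, 0.44 and 1.00 on standard diet, a fall by 1.89 (standard error 0.37). Fdft1, the squalene synthase and first enzyme committed to sterols, had -0.35, -1.67, -1.27, -1.79 and -1.80 on cholesterol diet, against 0.11, 0.23 and 0.85 on standard diet. It was 3.40-fold lower on cholesterol diet (adjusted p = 0.000208), without overlap. Sqle, the squalene epoxidase, lay above background on 6 of 6 arrays of the standard diet and on 0 of 5 of the cholesterol diet, so that only a bound can be given: it was at least 1.62-fold lower (adjusted p = 0.000341), with measured means of -0.85 on cholesterol diet and 0.21 on standard diet. Its measured log2 ratios were -0.51, -1.19, -0.69, -0.84 and -1.002 on cholesterol diet, against 0.04, 0.13 and 0.69 on standard diet. The bound sets the standard diet mean against the lowest signal of probes above background on each cholesterol diet array, or the probe's own where that was higher.

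Beyond squalene the differences were larger still in a pair of demethylating enzymes. Cyp51, the lanosterol demethylase, had -0.43, -1.90, -1.42, -2.05 and -2.59 on cholesterol diet, against -0.18, 0.49 and 0.90 on standard diet, a fall by 2.10 (standard error 0.36). Msmo1, named Sc4mol in the file and a C4-methylsterol oxidase, had -0.96, -2.71, -2.25, -2.62 and -2.97 on cholesterol diet, against 0.02, 0.39 and 1.06 on standard diet. This 6.80-fold decrease (adjusted p = 1.98e-05) was the largest difference of any gene on the array.

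Lss, which closes lanosterol's rings, had -0.56, -1.24, -1.33, -1.33 and -1.62 on cholesterol diet, against -0.33, 0.14 and 0.84 on standard diet, a fall by 1.40 (standard error 0.31). Nsdhl, which acts on the same C4 methyl groups as Msmo1, had -0.07, -1.88, -0.95, -0.96 and -2.05 on cholesterol diet, against -0.24, 0.20 and 0.54 on standard diet, a fall by 1.35 (standard error 0.37). Dhcr7, which makes cholesterol from 7-dehydrocholesterol, had 0.18, -0.49, -0.28, -0.23 and -0.51 on cholesterol diet, against 0.03, 0.32 and 0.59 on standard diet, a fall by 0.57 (standard error 0.15). In Nsdhl and Dhcr7 mouse 1 lay within the range of the standard diet and the other 4 below it. Dhcr7 did not pass the test in the deposited log2 ratios, where its difference was -0.31.

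Not every enzyme of the route moved with these. Idi1, the isopentenyl diphosphate isomerase, had a difference of 0.32 (standard error 0.11, adjusted p = 0.0511), in the opposite direction and just short of the threshold. It passed in 8 of 16 processing alternatives. Its log2 ratios were -0.16, -0.04, 0.06, 0.61 and 0.27 on cholesterol diet, against -0.32, -0.14 and -0.03 on standard diet. Sc5d, which sets the C5 double bond, had a difference of -0.22 (standard error 0.16), and Ebp, a sterol isomerase, of -0.15 (standard error 0.06, adjusted p = 0.101), although its diets did not overlap. Ebp passed downwards in 4 of 16 processing alternatives, among them the fit with only the vehicle mice, and in 0 of the 11 fits that leave out 1 mouse. Acat2, a symbol that has been used for a thiolase and for a sterol acyltransferase, had 0.03, and Pmvk lay below background on every array.

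**Figure D1:**
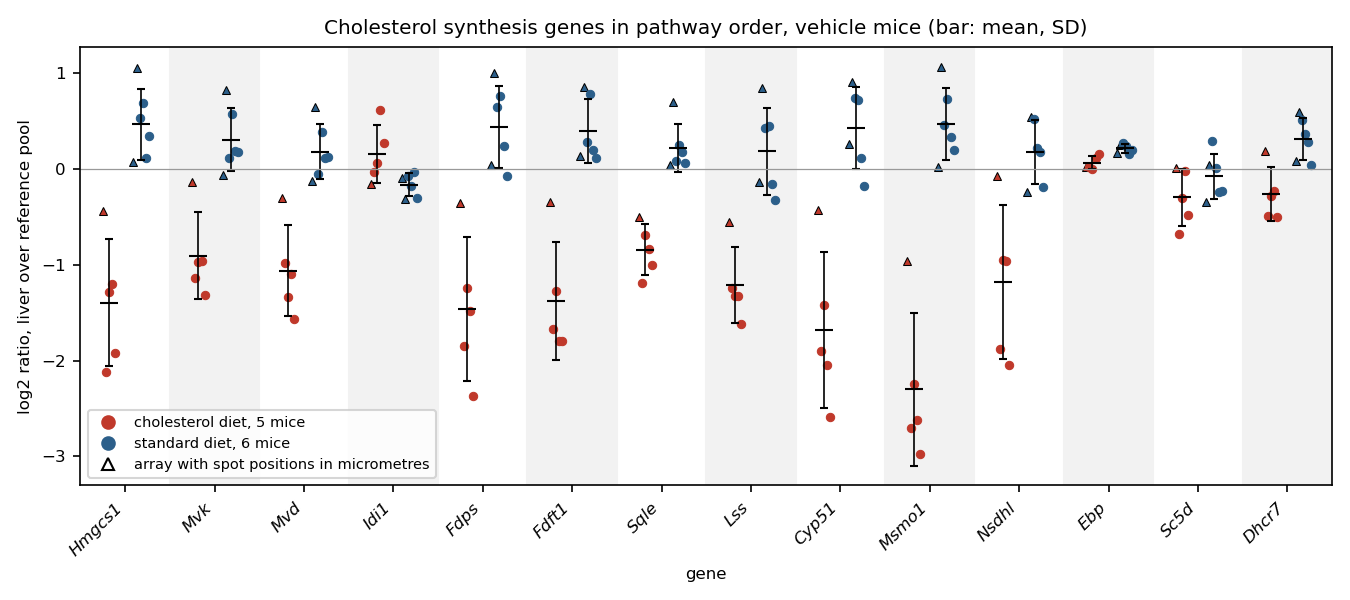
Log2 ratio of liver over reference pool (vertical axis) for 14 cholesterol synthesis genes in pathway order (horizontal axis), 1 point per mouse, with cholesterol diet (red, 5 mice) left of standard diet (blue, 6 mice); black bars are the mean ± SD and triangles are arrays with spot positions in micrometres. Mouse 1 is the highest red point in all 11 genes shown that fell, and Idi1 is the one gene shown whose red mean lies above its blue mean.

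The depth of the fall differed between mice. Relative to the standard diet mean, the median of the 18 synthesis genes was -0.46 in mouse 1 on cholesterol diet, against -1.41, -1.19, -1.17 and -1.45 in mice 3, 4, 5 and 6, while the 6 mice on standard diet lay between -0.24 and 0.47. Mouse 1 had the highest ratio of its group in 13 of the 13 genes that fell, and mouse 6 the lowest in 10. On standard diet mouse 2 was the highest in 13 of 13. The SD between mice of these 13 genes had a median of 0.48 on cholesterol diet and 0.33 on standard diet, next to 0.14 and 0.12 over all genes.

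Mouse 1 was also the only one of its group whose scanner file gives spot positions in micrometres, as do those of mice 1 and 2 on standard diet; the others give millimetres. With this unit as a block the median of the synthesis genes was -1.20. Within the micrometre arrays, which hold 1 cholesterol diet and 2 standard diet mice, it was -0.54, and within the millimetre arrays it was -1.30. On cholesterol diet the micrometre unit and mouse 1 cannot be told apart. Within the micrometre arrays limma called 0 genes (36 at an unadjusted p under 0.05), and within the millimetre arrays 31, of which 27 were among the 40.

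The SREBP pathway itself was measured partly by dim probes. Of 8 genes of sterol sensing on the array, 1 rose and 1 fell (4.69% and 9.75% of all genes), with a median difference of -0.02. Insig1, which holds SREBP back when sterols are plentiful, is itself an SREBP target. Its log2 ratios were -0.43, -1.22, -0.58, -0.76 and -0.99 on cholesterol diet, against -0.91, -0.24 and -0.10 on standard diet. Insig1 did not pass (difference -0.46, standard error 0.20, adjusted p = 0.125). Insig2 had 0.12, Scap, the SREBP escort, 0.01, and Mbtps1, the protease that releases SREBP, -0.05. Mbtps1 lay above background on 2 of 5 and 4 of 6 arrays. Srebf1, which encodes SREBP1, passed the test in the upward direction (adjusted p = 0.0218) but lay below background on every array of both diets, as did Srebf2, so no fold is given for either. The call of Srebf1 was lost after median centring, with loess on the spikes, with only the vehicle mice in the fit, and without mouse 1, 5 or 6 on cholesterol diet.

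Of 10 measured genes known as LXR targets 2 were up-regulated (Mlxipl and Srebf1), next to 4.69% of all genes, with a median of 0.15. Of these 2 only Mlxipl lay above background. Mlxipl, named Wbscr14 in the file, encodes ChREBP, which turns on glycolytic and lipogenic genes in response to sugar. Its log2 ratios were 0.21, 0.07, 0.34, 0.32 and 0.28 on cholesterol diet, against -0.81, -0.58 and -0.52 on standard diet. The diets lay far apart, and the 1.80-fold increase had one of the smallest adjusted p-values of the array (1.15e-05). Scd1, the stearoyl-CoA desaturase, had the largest positive difference of all genes (1.33) with a standard error of 0.46 and did not pass (adjusted p = 0.0525). It passed in 8 of 16 processing alternatives.

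Scd1's 5 mice on cholesterol diet had 0.29, -0.86, 0.66, 1.81 and 1.16, against -1.76, -0.50 and -0.28 on standard diet, so that mouse 3 alone overlapped the standard diet. Abcg5 and Abcg8, which pair to form the transporter that secretes sterols into bile, had differences of 0.55 (standard error 0.24) and 0.56 (standard error 0.26) and did not pass. With 1 mouse left out they ranged from 0.29 to 0.74 and from 0.31 to 0.76, lowest without mouse 6 on cholesterol diet, and Abcg5 passed without mouse 1 on cholesterol diet (0.74, adjusted p = 0.0351). Abca1, which loads cholesterol onto apolipoprotein A1, had 0.07, Apoe 0.08 and Fasn, the fatty acid synthase, 0.14. Of 7 sterol transporters limma called 0 (2 at an unadjusted p under 0.05). Of the 4 genes of fatty acid synthesis measured, 2 passed upwards (4.69% of all genes), Mlxipl and the dim Srebf1, with a median of 0.50.

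None of the 8 genes of bile acid synthesis passed in limma (3 at an unadjusted p under 0.05; median -0.05). Cyp8b1, the sterol 12-alpha-hydroxylase, had the widest difference of -0.77 (standard error 0.33, adjusted p = 0.118), with 0.24, 0.51, -1.19, 0.00 and 0.25 on cholesterol diet, against 0.43, 0.64 and 1.24 on standard diet. Cyp7a1, whose activity limits the classical route, had a difference of -0.23 (adjusted p = 0.419, standard error 0.17), and Cyp27a1, of the alternative pathway, 0.00 (standard error 0.11). Scp2, which acts in the shortening of the side chain, had 0.32, and Cyp7b1 0.20.

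Of 13 transporters of bile acids and xenobiotics 2 fell and 2 rose (9.75% and 4.69% of all genes), with a median of -0.04. The 2 that fell face the blood, as do the uptake carriers Slco1a1, which rose, and Slc10a1, which did not pass (both below). Slco1a4, an uptake carrier for bile acids and organic anions, had -0.93, -0.90, -1.12, -1.58 and -1.52 on cholesterol diet, against -0.61, -0.24 and 0.21 on standard diet, a 2.00-fold decrease (standard error 0.15, adjusted p = 4.02e-05). Abcc3, an exporter back to the blood, had -0.86, -0.96, -0.90, -1.47 and -1.71 on cholesterol diet, against -0.42, -0.40 and 0.03 on standard diet, a fall by 0.89 (standard error 0.14, adjusted p = 9.28e-05). Neither gene's diets overlapped, and mice 5 and 6 had the lowest values in both.

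Abcb11, the bile salt export pump of the canaliculus, rose by 0.49 (standard error 0.09, adjusted p = 0.000341). Its log2 ratios were 0.31, 0.06, 0.27, 0.18 and 0.06 on cholesterol diet, against -0.59, -0.31 and -0.11 on standard diet. Slco1a1, a further uptake carrier, had 0.55, 0.16, 0.17, 0.15 and 1.51 on cholesterol diet, against -0.29, -0.15 and -0.02 on standard diet, a rise by 0.67 (standard error 0.17). It lay above background on 4 of 5 and 1 of 6 arrays, and the rise was 0.42 without mouse 6 and 1.10 after plain subtraction. It did not pass with only the vehicle mice in the fit or by the methods' t-test after Benjamini-Hochberg. Of those that did not pass, Abcc2, of the canaliculus, had -0.25 and Slc10a1, the main sodium-dependent bile acid uptake carrier, -0.10. Probes on this array are cDNAs, which can bind close paralogs such as those of the Slco1a, Cyp2a, Cyp2c and Cyp3a families, so these values may hold a share of the paralogs' RNA.

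Among 20 cytochromes P450 of xenobiotic metabolism 4 fell and 2 rose, next to 9.75% and 4.69% of all genes, and the median difference was -0.21. Cyp3a25 and Cyp3a13, hydroxylases of drugs and steroids, both fell without overlap. Cyp3a25 had -1.61, -1.07, -1.12, -1.05 and -1.26 on cholesterol diet, against -0.61, -0.42 and -0.25 on standard diet, a fall by 0.80 (standard error 0.11, adjusted p = 2.11e-05). Cyp3a13 had -1.45, -0.40, -0.86, -1.002 and -0.98 on cholesterol diet, against -0.32, -0.25 and -0.02 on standard diet, a fall by 0.72 (standard error 0.14). In both mouse 1, which had the smallest fall in cholesterol synthesis, had the lowest value. Cyp3a11, of the same family, had -0.40 (standard error 0.21) and did not pass. With 1 mouse left out its difference ranged from -0.58, without mouse 3, to -0.16, without mouse 6 on cholesterol diet.

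Cyp2a4 fell by 0.48 (standard error 0.12) and Cyp2e1, which oxidizes ethanol and ketones, by 0.46 (standard error 0.11), both with overlap between the diets. Cyp2a4 did not pass in the deposited log2 ratios, after median centring or with loess on the spikes, and Cyp2e1 did not once the left-out mouse was added to those ratios, or by the methods' t-test after Benjamini-Hochberg. The other two rose. Cyp4f14, a hydroxylase of fatty acids and eicosanoids, had 0.48, 0.43, 0.51, 0.74 and 0.68 on cholesterol diet, against -0.46, -0.21 and 0.02 on standard diet, a 1.76-fold increase (adjusted p = 1.15e-05) without overlap. Cyp2c40, a hydroxylase of arachidonic acid, had 0.09, 1.01, 0.58, 0.96 and 1.08 on cholesterol diet, against -0.14, -0.05 and 0.30 on standard diet, a rise by 0.76 (standard error 0.18). Here mouse 1 overlapped the standard diet, and within the micrometre arrays the difference was -0.035.

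CAR is encoded by Nr1i3, which fell. Nr1i3 had 0.02, -0.08, -0.07, -0.09 and -0.73 on cholesterol diet, against 0.19, 0.43 and 0.52 on standard diet, a difference of -0.60 (standard error 0.15, adjusted p = 0.00819) without overlap, in which mouse 6 stood apart from its group. It did not pass in the deposited log2 ratios, after median centring or with loess on the spikes. The Cyp2b genes, the usual readout of CAR, did not pass. Cyp2b10 had a difference of -0.46 (standard error 0.16, adjusted p = 0.0525), Cyp2b13 of -0.46 and Cyp2b9 of -0.44. Cyp2b10 passed without mouse 2 on standard diet. Without mouse 1 on cholesterol diet all 3 passed, at -0.61, -0.63 and -0.61, and without mouse 6 on cholesterol diet they had -0.24, -0.21 and -0.24. Within the micrometre arrays the 3 differences were positive (0.30, 0.33 and 0.41). Alas1, which limits heme synthesis, had -0.63 (standard error 0.24, adjusted p = 0.074).

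Profiles over the mice were compared with that of cholesterol synthesis. Over the 11 arrays, which share one reference pool and include the diet difference itself, the genes outside the synthesis list with the highest Pearson's r to its median were Slco1a4 (0.88), Nr1i3 (0.83), Abcc3 (0.83) and Alas1 (0.82), leaving aside genes not named here. Alas1 overlapped between the diets through mouse 1, and the other three did not overlap.

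**Figure D2:**
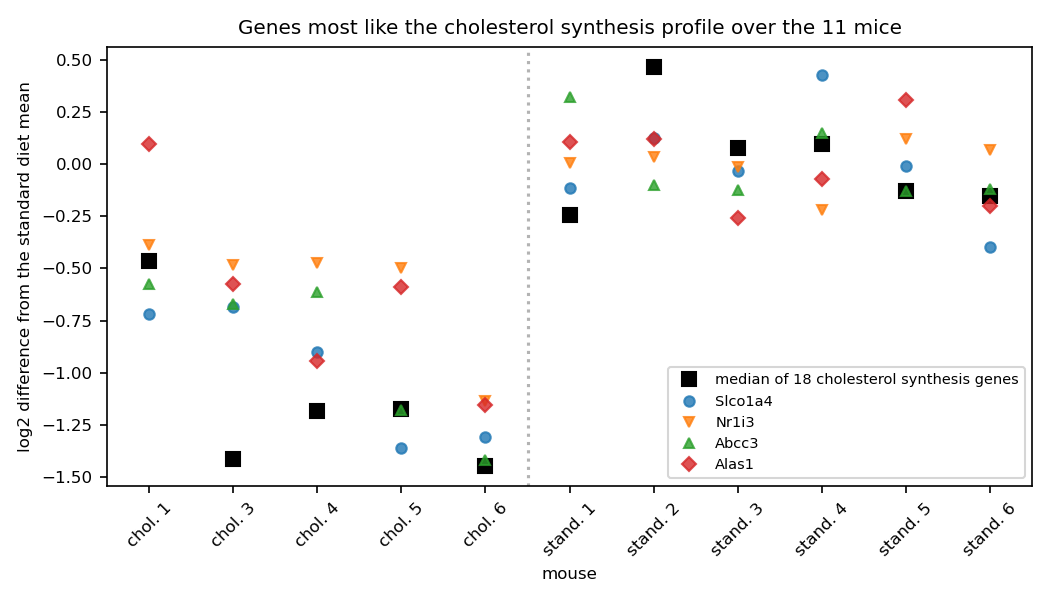
Log2 difference from the standard diet mean (vertical axis) for each of the 11 mice (horizontal axis, cholesterol diet left of the dotted line and standard diet right of it), for the median of the 18 cholesterol synthesis genes (black squares) and the named genes most like it. The black squares of mice 3 to 6 on cholesterol diet lie between -1.17 and -1.45 and that of mouse 1 at -0.46, where Alas1 also lies among the standard diet values.

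Of 13 apolipoproteins, lipases and related genes 1 rose, next to 4.69% of all genes, and 0 fell (4 at an unadjusted p under 0.05 in limma; median 0.08). Apoa4, which circulates on chylomicrons and HDL, had 0.21, -0.30, -0.49, 0.06 and 0.09 on cholesterol diet, against -1.37, -0.99 and -0.80 on standard diet, a 1.91-fold increase (standard error 0.21, adjusted p = 0.00262) without overlap. Apoa2 had -0.33 (standard error 0.11, adjusted p = 0.0525), Apoc3 0.31 and Apoa5 -0.14, and none of these passed.

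Plasma proteins of the acute phase had a median difference of -0.46, with 2 of 10 down-regulated next to 9.75% of all genes, and of 0.06 within the micrometre arrays. Apcs, serum amyloid P, had -0.51, -0.34, -0.55, -1.17 and -0.78 on cholesterol diet, against -0.07, 0.38 and 0.74 on standard diet, a fall by 1.03 (standard error 0.30, adjusted p = 0.0218). Fgb, the fibrinogen beta chain, had -0.34, 0.28, -0.16, -0.04 and 0.33 on cholesterol diet, against 0.26, 0.62 and 1.08 on standard diet, a fall by 0.63 (standard error 0.21, adjusted p = 0.0452). Apcs did not overlap and Fgb did. Apcs did not pass without mouse 5 of either diet or with loess on the spikes, while its difference stayed between -1.12 and -0.90 with 1 mouse left out. Fgb passed in 4 of the 11 such fits, with differences of -0.71 to -0.54, and did not pass with the replicate block (adjusted p = 0.0889), with the spot unit as a block, in the deposited log2 ratios, after plain subtraction or with loess on the spikes.

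Saa1, Saa2 and Saa3, of serum amyloid A, had differences of -0.67, -0.68 and -0.71 and did not pass. Their standard errors of 0.76, 0.78 and 0.73 come from the fit that includes the TCPOBOP mice. By the methods' t-test, on vehicle mice alone, Saa1 and Saa2 passed at their threshold but not after Benjamini-Hochberg, and Saa3 passed in neither. C9, the last component of the complement attack complex, went the other way. Its log2 ratios were 0.26, 0.38, 0.19, 0.69 and 1.26 on cholesterol diet, against -0.71, -0.39 and -0.08 on standard diet, a 1.95-fold increase (standard error 0.25, adjusted p = 0.00819) without overlap. Of the 7 complement and coagulation genes C9 alone rose and Fgb alone fell (4.69% and 9.75% of all genes), and C3 had 0.04. Stat3, the factor that relays interleukin 6 to acute phase genes, fell by 0.34 (standard error 0.11, adjusted p = 0.0334) but passed in 5 of the 11 fits that leave out 1 mouse, and not in the deposited log2 ratios, after plain subtraction, median centring or loess on the spikes, or with only the vehicle mice in the fit.

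Of 35 nuclear receptors and co-regulators 3 rose and 2 fell, at a median of 0.04, a share of calls close to the 14.4% of all genes. Besides Nr1i3, Pparg, the adipogenic PPAR, fell by 0.49 (standard error 0.09, adjusted p = 0.000489), although it lay above background on 1 of 5 and 3 of 6 arrays, so that its size is uncertain, and after plain subtraction the difference was -0.91. Nr5a2, a receptor known to support bile acid synthesis, rose by 0.27 (standard error 0.08, adjusted p = 0.0245), and passed in 7 of the 11 fits with 1 mouse left out. In the deposited log2 ratios with the left-out mouse added its difference was 0.46. Ppara, the fasting-activated regulator of fatty acid oxidation, had 0.39 (standard error 0.13, adjusted p = 0.0525), and its target Cpt1a had -0.29. Nr1h4, the farnesoid X receptor, had -0.10, and Nr1i2, the pregnane X receptor, -0.03.

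Genes of insulin and growth signalling included 2 that rose of 12, next to 4.69% of all genes (median 0.02). Igf1, the growth factor secreted by liver, had 0.55, 0.41, 0.51, 0.69 and 0.59 on cholesterol diet, against -0.07, 0.03 and 0.12 on standard diet, a rise by 0.51 (standard error 0.15, adjusted p = 0.0218) without overlap. It did not pass without mouse 5 of either diet. Irs2, an adaptor of the insulin receptor, passed upwards but lay below background on every array, and lost its call after median centring, with loess on the spikes and without mouse 3 or 5 on standard diet. Lepr, the leptin receptor, had -0.12, 0.25, 0.18, 0.00 and 2.04 on cholesterol diet, against -0.02, 0.03 and 0.20 on standard diet, so that its difference of 0.40 rested on mouse 6. A gene the file calls Jnk-1 fell by 0.16 (standard error 0.05) and passed in 3 of the 11 fits and in 8 of the 16 processing alternatives.

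In glucose metabolism limma called 0 of 14 genes (6 at an unadjusted p under 0.05; median 0.05). G6pc, the last enzyme of glucose release, had 0.12, 0.47, 0.81, 1.21 and 0.85 on cholesterol diet, against -0.73, -0.32 and 0.57 on standard diet (difference 0.88, standard error 0.31, adjusted p = 0.0525). It passed in 9 of 16 processing alternatives and in 3 of the 11 fits that leave out 1 mouse. Pck1, of gluconeogenesis, had 0.03, Ppp1r3c, which targets a phosphatase to glycogen, -0.51, and Pklr, the liver pyruvate kinase, 0.32. Ppp1r3c passed in 4 of 16 processing alternatives, among them the fit with only the vehicle mice, and in 0 of the 11 fits that leave out 1 mouse. The 9 clock genes had differences between -0.03 and 0.12, with 0 past the threshold and 0 at an unadjusted p under 0.05 in limma. Of the genes often used as references Actb had a difference of 0.63 (standard error 0.21, adjusted p = 0.0506), with -0.13, -0.38, -0.12, 0.28 and 0.19 on cholesterol diet, against -1.40, -0.59 and -0.04 on standard diet, and Gapdh had 0.40 (standard error 0.22).

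**Figure D3:**
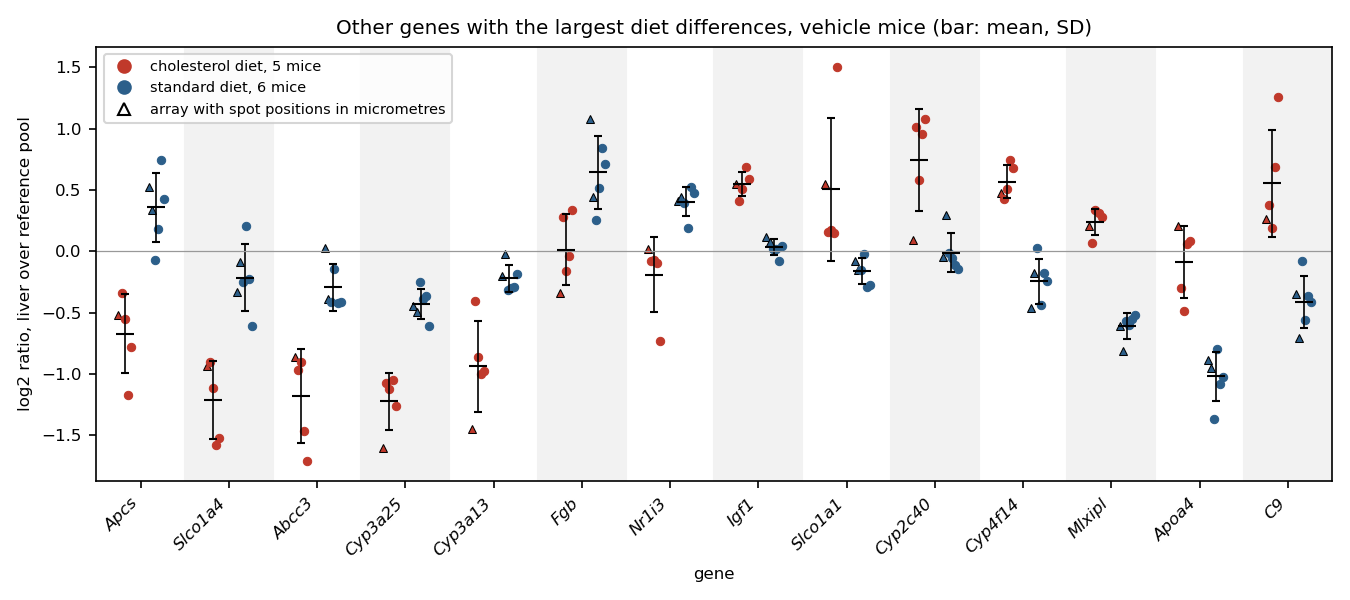
Log2 ratio of liver over reference pool (vertical axis) for 14 genes outside cholesterol synthesis with the widest differences past the threshold (horizontal axis, from the largest fall to the largest rise), 1 point per mouse, cholesterol diet (red, 5 mice) left of standard diet (blue, 6 mice); black bars are the mean ± SD and triangles are arrays with spot positions in micrometres. Mlxipl and Cyp4f14 have the diets well apart, while a single mouse, number 6, stands high in Slco1a1 and low in Nr1i3.

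The mouse that entered no fit can be placed by its deposited log2 ratios, which were normalized by the authors. Of the 40 genes 34 have a value in it, and in 33 it lay on the same side of the standard diet mean as the 5 fitted mice did. In 30 of the 34 it lay beyond all standard diet values on that side, next to 100 of 173 genes overall that lay beyond them on either side, of which 75 lay above and 25 below. All 13 synthesis genes lay below the standard diet mean and 12 below every mouse on standard diet. Its Msmo1 stood at -1.29, against a standard diet mean of 0.32 and a lowest value of -0.205, and its Hmgcs1 at -1.31, against a mean of 0.25. The other mice on cholesterol diet had lower deposited means, -2.35 for Msmo1 (5 values) and -1.59 for Hmgcs1 (4 values). In Mlxipl the left-out mouse had 0.18, against a standard diet mean of -0.87, and in Slco1a4 -1.38, against -0.37.

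The same diets were fed to mice given TCPOBOP at 3 mg/kg, 6 mice each, those on cholesterol diet being 18 weeks old and those on standard diet 19. Of the 277 genes 12 passed in these mice (4.33%), 2 upwards and 10 downwards (3.61%), and 5 of the 12 were among the 40. Of the synthesis genes 3 passed, with a median of -0.64 over the 18, next to -1.21 in vehicle mice. The difference was smaller in size in TCPOBOP mice than in vehicle mice for 39 of the 40 genes, all chosen for their values in vehicle mice.

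The test of the difference between both sets of mice called 0 genes in limma (36 at an unadjusted p under 0.05). Cyp4f14, Abcc3, Apoa4, Pparg and Cyp2e1 came closest, each with an adjusted p of 0.0528. For Apoa4 the diet difference was 0.93 in vehicle mice and -0.20 in TCPOBOP mice (difference of the differences 1.13, 95% interval 0.53 to 1.73), and for Abcc3 it was -0.89 in vehicle mice and -0.12 in TCPOBOP mice (-0.77, 95% interval -1.17 to -0.37). Mouse 3 on cholesterol diet with TCPOBOP stood apart from its group, with a mean r of 0.26 to the others of it, and without it 7 genes passed in TCPOBOP mice and 6 in the test of the difference. Leaving out other mice also gave up to 6 calls in that test.

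**Figure D4:**
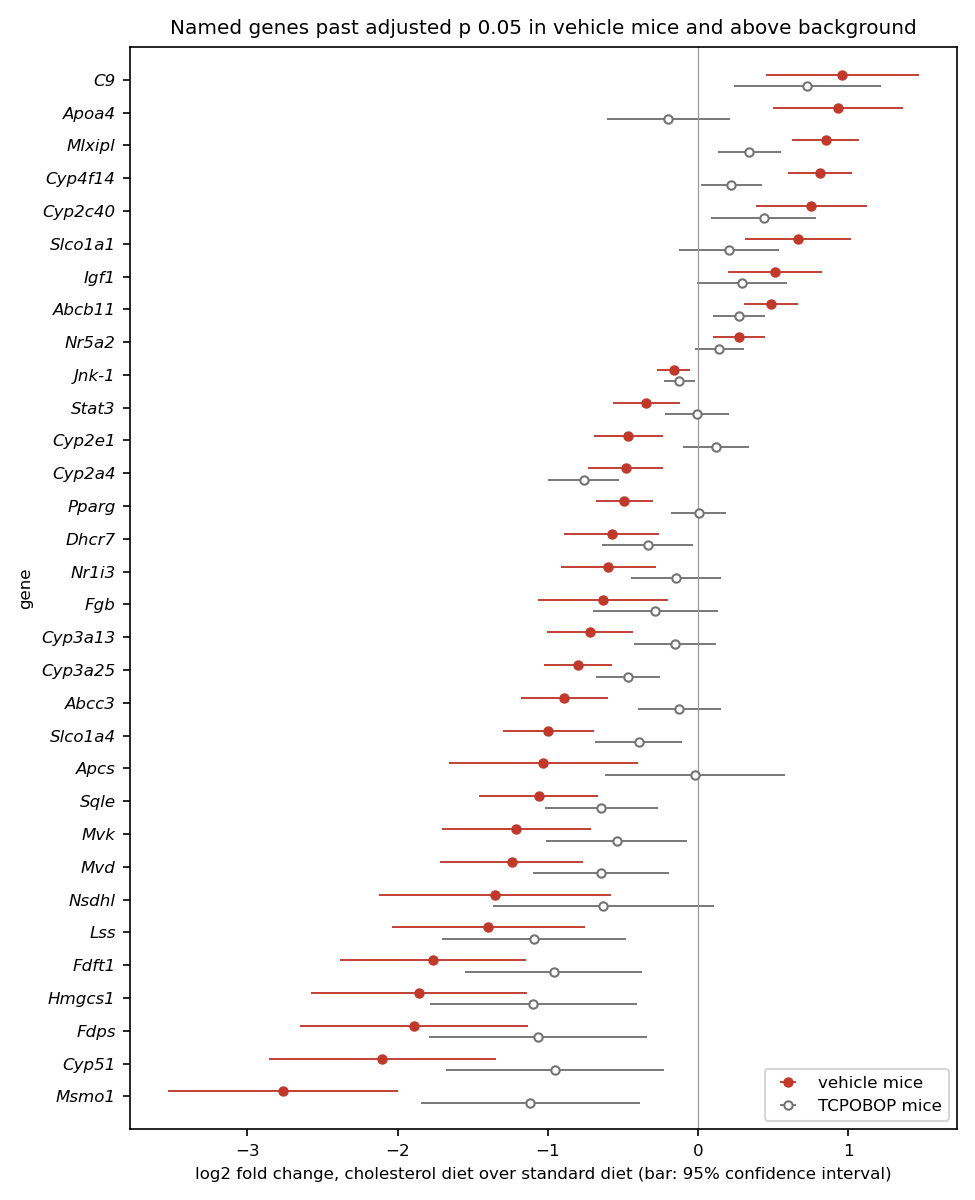
Log2 fold change of cholesterol diet over standard diet (horizontal axis) for 32 named genes past the threshold in vehicle mice and above background on some array (vertical axis), in vehicle mice (filled red) and TCPOBOP mice (open grey), with 95% confidence intervals. Msmo1 is lowest at -2.76 and C9 highest at 0.96 in vehicle mice, and the value plotted for Sqle is a measured difference whose true size is bounded only from below.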

How the data were processed

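Each array carried the Cy3-labelled RNA of 1 liver beside a Cy5-labelled pool of livers on the Steroltalk cDNA platform. As deposited, the scanner files give an intensity for either channel of a spot and its surrounding background separately, with nothing subtracted or scaled. The authors also deposited log2 ratios, normalized and summarised to 1 value a probe, which served as an alternative and for the mouse that lacks scanner intensities. On an array both had a Pearson's r of 0.917 to 0.996. Of the deposited sample columns, 18 were not used here.

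The background correction was normexp with an offset of 50, followed by loess within arrays fitted to mouse spots and a mean per probe of its 3 to 6 spots; 31 control features and 5 human probes were left out. For 6 genes with several probes the brightest was taken. Names of the 284 probes came from a current symbol for 220, an older synonym for 50 and the file alone for 14. Above background means that on most spots the mean exceeded the median of the background by over 2 SDs. The number of arrays limits the precision.

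One fit of 4 groups with 23 arrays (limma 3.58.1, R 4.3.3, lmFit and eBayes) gave the diet difference in vehicle mice, in TCPOBOP mice and the difference of both, two-sided, adjusted by Benjamini and Hochberg over 277 genes with a threshold of 0.05. Of 253 pairs of these arrays 91 had an r under -0.3, each joining 1 TCPOBOP with 1 vehicle mouse (lowest -0.67); among the 11 arrays of vehicle mice the lowest was -0.07. Directions follow the dyes given in the labels. The fit was tested on simulated data. Python 3.11.15 and matplotlib 3.10.9 were used for names, promoters and plots.

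The rule named the genes past the threshold, of which 34 of 40 are given, with values per mouse for the synthesis genes among these and 14 of the 15 others with the largest differences, up to 5 further members of each list in order of their difference, and genes of bile acid, sterol and glucose metabolism chosen for their role. The members and lists were chosen with earlier results of these data known. A few genes stay in all fits and counts but are not reported here. Values per mouse of genes short of the threshold were shown after their values were seen. The alternatives were another source of values, background correction, normalization, summary over spots or probes, a filter on dim genes, the groups in the fit, array weights, blocks for replicate number and spot unit, the methods' t-test, and leaving out each array.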

Additional observations from a re-analysis of the deposited data

Results flagged for a closer look

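In 300 groups of values (named genes and list medians, on each diet) a mouse far from the others was found 22 times by Dixon's ratio at its 95% critical value. Chance flags about 1 in 20 groups. Values are log2 ratios, for list medians relative to the standard diet mean.

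Of the genes past the threshold, Irs2 had 0.05 in mouse 4 on cholesterol diet (nearest other mouse 0.17) and Nr1i3 -0.73 in mouse 6 on cholesterol diet (nearest -0.09). On standard diet mouse 2 stood apart in Cyp2c40 at 0.30 (nearest -0.01), in Mlxipl at -0.81 (nearest -0.61) and in Sqle at 0.69 (nearest 0.24). The cholesterol synthesis median of mouse 1 on cholesterol diet was -0.46, with the nearest other mouse at -1.17.

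Among genes short of the threshold, mouse 6 on cholesterol diet had a Lepr of 2.04, the nearest mouse having 0.25. Mouse 4 on cholesterol diet had 0.21 in Cry2, and mouse 3 had -0.83 in Slc10a2. Mouse 5 on cholesterol diet had 0.31 in Ppard, -0.21 in C4bp, 0.11 in Per2 and 0.08 in Cyp19a1. On standard diet mouse 5 had 1.56 in Saa3, 0.50 in Orm1 and -0.14 in Cry2, and an acute phase median of 0.35, the nearest mouse having -0.02. Mouse 4 on standard diet had -0.19 in Hnf4a and -0.43 in Jun, mouse 1 had -0.91 in Insig1, and mouse 6 had -1.76 in Scd1 and a steroid hormone synthesis median of -0.19.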

How the results depend on the processing

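The 40 genes became 32 to 48 when single arrays were left out, and 33 to 58 under the other alternatives with all arrays, except that limma called 0 within the micrometre arrays (36 at an unadjusted p under 0.05), 31 within the millimetre arrays, and the methods' t-test at their threshold 79 (42 after Benjamini-Hochberg). Cyp2c40 was reversed within the micrometre arrays, at -0.035. The synthesis median ranged from -1.37 to -1.11 with single arrays left out and from -1.47 to -1.14 under the other alternatives, apart from -0.54 within the micrometre arrays. The genes that passed in TCPOBOP mice numbered 7 to 23 with single arrays left out (22 without mouse 1 on cholesterol diet with vehicle, 7 without mouse 3 and 23 without mouse 5 on cholesterol diet with TCPOBOP), 3 after median centring, 3 within the millimetre arrays and 0 within the micrometre arrays. The test of the difference called 0 to 6 with single arrays left out (4 to 6 without mice 1, 3 or 4 on cholesterol diet with vehicle, 6 without mouse 3 on cholesterol diet and 6 without mouse 2 on standard diet with TCPOBOP), 6 with normexp offset 16, 5 without dim genes and 1 within the millimetre arrays. Of the 40 genes 30 passed in all 11 fits that leave out 1 mouse. Outside single spot units 26 passed under every alternative that tested them, and 24 passed under both. The deposited log2 ratios tested only 180 genes and the filter on dim genes 182, and Sqle and Pparg were tested in neither. The cause of the losses was not tested. Stat3 lost its call without mice 3, 4 or 5 on cholesterol diet and 2, 5 or 6 on standard diet, and Nr5a2 without mice 1 or 3 on cholesterol diet and 1 or 5 on standard diet. Short of the threshold, Alas1 passed without mouse 1, Idi1 without 1 or 3, Scd1 without 3 and Cyp7b1 without 6 on cholesterol diet, and G6pc, Pklr, Apoa2, Actb and Ppara without 1 of 2 or 3 mice. Under the 16 processing alternatives outside single spot units, G6pc passed in 9 and Idi1 and Scd1 in 8. Rises made up 32.5% of the calls, against 45.7% with the deposited log2 ratios and 48.6% with the left-out mouse added to them, 45.7% after plain subtraction and 19.4% within the millimetre arrays. Replicate numbers did not pair the samples (r of same-numbered mice -0.25 to 0.29), and with the replicate block 45 genes passed, 39 of them among the 40. Dim probes limit Sqle, Slco1a1 and Pparg, and 57 genes lay below background on every array.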
